A study of Homo sapiens with 6 samples.

Results

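The genes described here are the sensors, transcription factors, chaperones, folding enzymes and degradation factors of the endoplasmic reticulum (ER), the compartment in which secreted and membrane proteins fold. They were given as a list of 41 symbols, of which VIMP is the older symbol of SELENOS, so that the list holds 40 genes among the 63241 genes of the count files. Each was found by its Ensembl gene identifier through its symbol. By role, 6 are stress sensors, proteases that cut a sensor, or XBP1, the substrate of a sensor. The CREB3 family of membrane-bound transcription factors has 2, 3 are chaperones of the HSP70 and HSP90 classes, and 2 are lectin chaperones. Disulfide bonds are formed or handled by 6, 4 are J-domain co-chaperones, and 3 are small luminal proteins. The translocation channel has 2 subunits here, 11 serve ER-associated degradation, and 1 (WFS1) is a membrane protein of ER calcium handling.

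The membrane proteins IRE1 (gene ERN1), PERK (gene EIF2AK3) and ATF6 report on unfolded protein in the ER lumen. IRE1 cuts the XBP1 messenger RNA so that it is spliced to the form that encodes an active transcription factor, ATF6 is released by the Golgi proteases encoded by MBTPS1 and MBTPS2, and PERK slows translation while it favours synthesis of ATF4. XBP1 and ATF6 act on the promoters of chaperone and degradation genes, which is known as the unfolded protein response. Secretory and cancer cells are known to rely on this response when their load of client proteins is high.

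The data were RNA-seq libraries of MDA-MB-231, a line of human breast tumor cells of the triple-negative kind that the labels call wild type, treated for 24 h with 0.1% DMSO as the vehicle (3 libraries) or with 5 μM NCD (nitidine chloride, a plant alkaloid; 3 libraries). The comparison of both groups addresses which transcripts change with NCD in tumor cells cultured alone, at a single dose and time in a single line. In the free text of NCD replicates 2 and 3 the line carries another number, and the cell line field, which reads MDA-MB-231 for both, was followed. The labels do not say whether the libraries of a group came from separate cultures, so p-values measure only the spread between these libraries, which may be technical.

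The DMSO libraries held 18223594 to 19410833 expected counts, and the NCD libraries held 18232169 to 21629653. The line's markers VIM, CD44 and EGFR were present in both groups, although CD44 fell from 977 ± 18.1 to 277 ± 14.6 CPM (SD, n = 3 each) and EGFR from 169.8 ± 11.9 to 27.9 ± 2.06 CPM (SD, n = 3 each), with CPM as counts per 1000000 of the scaled library size. ESR1, PGR and CDH1 had at most 7 counts in any library, and leukocyte PTPRC and CD3E had at most 1. The endothelial markers were low, with a PECAM1 mean of 0.650 CPM with DMSO and 0.598 with NCD and at most 7 counts of CDH5. DMSO replicate 2 and NCD replicate 3 stood apart from the other libraries of their groups: chi-square values per degree of freedom, taken over genes, were 8.56 to 16.86 in pairs that held either of them, against 4.42 between DMSO replicates 1 and 3 and 2.09 between NCD replicates 1 and 2. TMM factors, which scale each library for its RNA composition, were 0.911 to 0.949 with DMSO and 1.059 to 1.092 with NCD, and scaling by library totals moved the median change over all genes tested from 0.04 to 0.23 on the log2 scale.

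The promoters of these genes are known for short elements through which ATF6 and XBP1 act, and the stretches below are shown because genes with an ERSE moved in different directions, beside the genes with an ERSE-II, of which those that passed the test rose. Promoter windows of 250 bases before to 50 bases after each annotated start were taken from RefSeq (GRCh38.p14) and matched 37 of the 40 genes. The motifs searched, on both strands, were the ER stress response element (ERSE) as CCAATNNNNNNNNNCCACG, ERSE-II as ATTGG and CCACG with any 1 base between them, and the core of the unfolded protein response element (UPRE) as TGACGTG. ERSE stood in 27 of all 35116 windows (0.0769%), and 10 of these windows belonged to 8 of the genes described here, which were CALR, CANX, CRELD2, ERO1B, HSP90B1, HSPA5, PDIA6 and XBP1. ERSE-II stood in 19 windows (0.0541%), among them those of HERPUD1, HYOU1 and SDF2L1, and the UPRE core in 692 windows (1.97%), among them those of DNAJC10, HYOU1 and SEC61A1. Each line below runs 5′ to 3′ on the gene's strand, and capitals mark the ERSE or ERSE-II match, which reads as its reverse complement where it lies on the opposite strand.
HSPA5 (ERSE, chr9:125241366-125241434, minus strand): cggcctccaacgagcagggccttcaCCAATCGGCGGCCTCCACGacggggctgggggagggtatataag
XBP1 (ERSE, chr22:28800578-28800646, minus strand): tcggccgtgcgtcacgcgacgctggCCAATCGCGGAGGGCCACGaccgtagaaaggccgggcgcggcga
CALR (ERSE, opposite strand, chr19:12938359-12938427, plus strand gene): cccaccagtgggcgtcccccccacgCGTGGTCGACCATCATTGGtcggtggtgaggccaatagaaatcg
ERO1B (ERSE, opposite strand, chr1:236282158-236282208, minus strand gene): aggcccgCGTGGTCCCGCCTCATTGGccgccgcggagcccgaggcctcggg
HERPUD1 (ERSE-II, chr16:56932000-56932060, plus strand): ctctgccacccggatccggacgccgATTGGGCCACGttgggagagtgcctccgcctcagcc
HYOU1 (ERSE-II, opposite strand, chr11:119057249-119057309, minus strand gene): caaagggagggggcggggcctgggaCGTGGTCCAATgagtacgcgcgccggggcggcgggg
SDF2L1 (ERSE-II, opposite strand, chr22:21642089-21642149, plus strand gene): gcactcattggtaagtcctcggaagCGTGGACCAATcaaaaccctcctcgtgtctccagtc
The matches began at positions -66 in HSPA5, -52 in XBP1, -225 in CALR, -243 in ERO1B, -117 in HERPUD1, -79 in HYOU1 and -188 in SDF2L1, counted from the annotated start. HYOU1 held a second ERSE-II match from -185, which overlaps its UPRE core match from -188. A match describes the letters of the window and does not show that a factor binds there.

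Of the 40 genes, 39 passed the filter on low counts. The remaining gene, DERL3, a channel protein of ER-associated degradation, was counted 6, 4 and 4 times with the vehicle and 5, 1 and 4 times with NCD. With NCD 13 genes were higher and 19 lower at an adjusted p below 0.05 in edgeR's quasi-likelihood test, and 7 did not pass. These were 33.3% and 48.7% of the 39, beside 35.3% higher and 34.1% lower among all 15295 genes tested. Scaling by library totals gave 18 higher and 15 lower. Past an absolute log2 fold change of 1 as well, XBP1, DNAJB9 and HERPUD1 rose and ATF6, ATF6B, CREB3L2, ERP44 and DNAJC3 fell. These 3 and 5 genes were 7.69% and 12.8% of the 39, where 13.5% and 17.5% of all tested genes passed both thresholds in those directions. With library totals they became 5 and 4, as CRELD2 and SYVN1 joined and ATF6B dropped out. The median log2 fold change of the 39 was -0.17, and that of all tested genes was 0.04. The libraries of both groups did not overlap in 33 of the 39, and in 72.6% of all tested genes. With DMSO replicate 2 and NCD replicate 3 both left out, 13 were higher and 19 lower. In bulk RNA, fewer cells of a kind and less RNA per cell cannot be told apart.

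**Figure D1:**
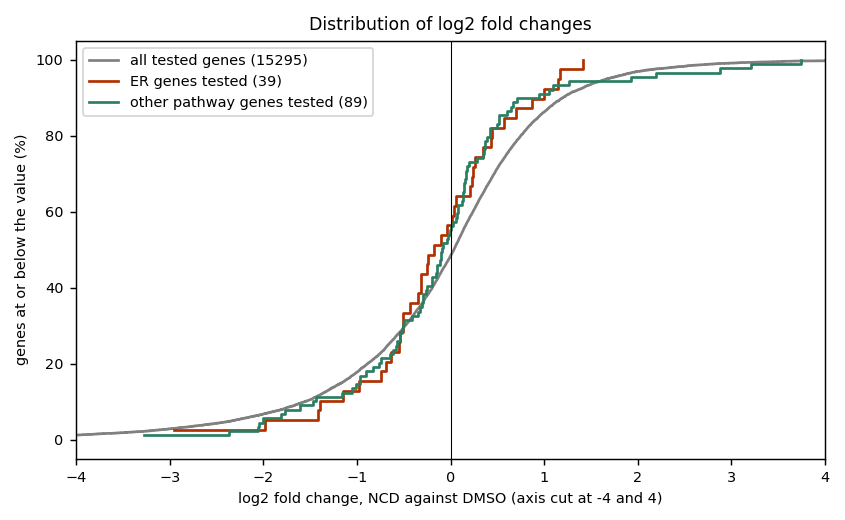
Cumulative share of genes (vertical axis, percent) at or below each log2 fold change of NCD against DMSO (horizontal axis), for the 39 ER genes tested, the 89 other tested genes of the pathway and all 15295 genes tested. The curve of the 39 lies to the left of that of all genes in its middle, with medians of -0.17 and 0.04, and ends sooner on both sides.

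**Figure D2:**
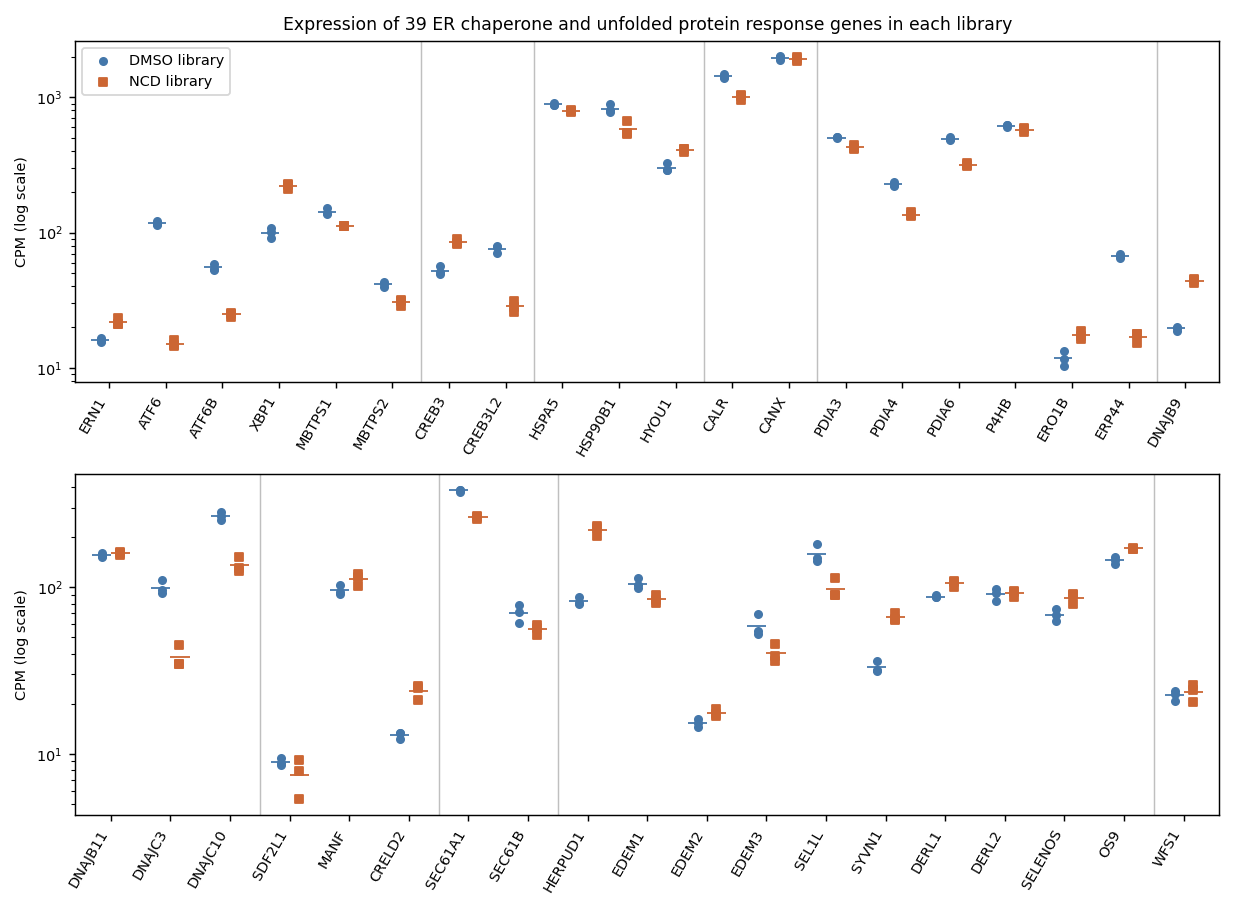
Expression of the 39 tested ER genes in each of the 6 libraries, as CPM on a log axis, with circles for DMSO, squares for NCD, short lines for the group means and vertical lines between roles. ATF6 and ERP44 show the widest downward gaps and HERPUD1, DNAJB9 and XBP1 the widest upward gaps, while CANX, DNAJB11, SDF2L1, MANF, DERL2 and WFS1 overlap between the groups.

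The transcripts of ERN1 and XBP1 rose, while those of ATF6 and ATF6B fell. ERN1 (chr17:64039142-64130819, minus strand, GENCODE release 29 on GRCh38), which encodes the sensor IRE1, measured 15.7, 16.7 and 15.4 CPM in DMSO replicates 1 to 3 and 20.9, 21.2 and 23.2 CPM in NCD replicates 1 to 3. All NCD libraries lay above all DMSO libraries, and ERN1 rose by 0.45 on the log2 scale (standard error 0.09, adjusted p = 0.00148, edgeR's quasi-likelihood test). Its substrate XBP1 (chr22:28794555-28800597, minus strand) measured 108, 91.3 and 100.3 CPM with DMSO and 229.5, 227 and 209 CPM with NCD. The groups were well separated, and XBP1 rose by 1.15 on the log2 scale (standard error 0.07, adjusted p = 1.34e-06), which was 2.22 times its DMSO level. Counts per gene do not tell spliced from unspliced XBP1, so the activity of IRE1 was not measured.

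ATF6 (chr1:161766294-161964070, plus strand), the sensor that is itself released as a transcription factor, measured 121, 116 and 114 CPM with DMSO and 14.5, 16.1 and 14.7 CPM with NCD. This was the largest fall among the 39 genes. ATF6 fell by 2.96 on the log2 scale (standard error 0.07, adjusted p = 1.24e-08), and its fitted level with DMSO was 7.76 times that with NCD. ATF6B (chr6:32115264-32128253, minus strand), the paralog of ATF6, measured 53.3, 58.7 and 53.6 CPM with DMSO and 25.2, 25.7 and 24.0 CPM with NCD. It fell by 1.15 on the log2 scale (standard error 0.07, adjusted p = 1.30e-06), and by 0.95 with library totals, which is short of the fold threshold. Per kilobase of exon, the mean of ATF6 went from 15.6 to 2.02 CPM and that of ERN1 from 1.63 to 2.22 CPM, so that the transcript levels of both sensors lay close together with NCD.

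The proteases that cut ATF6 fell by smaller amounts. MBTPS1, the site-1 protease, measured 141, 151 and 138 CPM with DMSO and 112, 112 and 112 CPM with NCD, and MBTPS2, the site-2 protease, measured 39.4, 43.1 and 41.7 CPM with DMSO and 28.8, 31.4 and 31.7 CPM with NCD. Neither pair of groups overlapped, and the log2 fold changes were -0.35 (standard error 0.06, adjusted p = 0.000492) and -0.43 (standard error 0.08, adjusted p = 0.000746). The CREB3 family proteins are cut by the same proteases. CREB3 rose by 0.70 on the log2 scale (standard error 0.07, adjusted p = 2.97e-05). CREB3L2 (chr7:137874979-138002067, minus strand) measured 77.9, 79.4 and 70.8 CPM with DMSO and 26.0, 28.1 and 31.4 CPM with NCD. It fell by 1.42 on the log2 scale (standard error 0.09, adjusted p = 1.10e-06), with every NCD library below every DMSO library.

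Of the HSP70 and HSP90 chaperones of the lumen, HSPA5 and HSP90B1 were lower with NCD and HYOU1 was higher, except that HSPA5 showed no fall with library totals. HSPA5 (chr9:125234853-125241330, minus strand), known as BiP, the HSP70 chaperone that also holds the sensors inactive, measured 883, 915 and 874 CPM with DMSO and 803, 773 and 792 CPM with NCD. The groups did not overlap, but the difference was small, and the fitted change of -0.17 on the log2 scale (standard error 0.06, adjusted p = 0.0222) turned to 0.02 with library totals (adjusted p = 0.715). Its call was also lost without NCD replicate 2 (adjusted p = 0.102), with no filter on low counts (0.0586) and with a replicate block (0.0595). HSP90B1, known as GRP94, the HSP90 chaperone of the ER, measured 783, 893 and 802 CPM with DMSO and 543, 534 and 664 CPM with NCD. Every NCD library lay below the DMSO libraries, with NCD replicate 3 the nearest to them, and HSP90B1 fell by 0.51 on the log2 scale (standard error 0.10, adjusted p = 0.00124). HYOU1, which helps HSPA5 exchange its nucleotide, rose by 0.44 (standard error 0.07, adjusted p = 0.000348), from 302 ± 22.4 to 409 ± 11.8 CPM (SD, n = 3 each).

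The lectin chaperones, which bind sugar-tagged clients, differed from each other. Calreticulin (CALR, chr19:12938578-12944489, plus strand), the soluble form, measured 1489, 1389.9 and 1409 CPM with DMSO and 1035, 1019.7 and 950.5 CPM with NCD. It fell without overlap by 0.51 on the log2 scale (standard error 0.07, adjusted p = 0.000107). Calnexin (CANX, chr5:179678628-179730925, plus strand), its membrane-bound relative, measured 1982, 2013 and 1897 CPM with DMSO and 1909, 1859 and 1988 CPM with NCD. These ranges overlapped, and CANX was at -0.03 on the log2 scale (standard error 0.07, adjusted p = 0.665), or at 0.16 with library totals (adjusted p = 0.0366). Per kilobase of exon, CALR had the highest level of the 40 genes in both groups, 751 CPM with DMSO and 526 with NCD, and CANX the next, 442 and 431. HSP90B1 and HSPA5 followed close together, with HSP90B1 at 288 and 203 CPM per kilobase and HSPA5 at 228 and 202. P4HB, at 238 and 221, lay between both with DMSO and above both with NCD.

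Among the disulfide enzymes 4 of 6 fell, 1 rose and 1 did not pass, where 34.1% of all tested genes were lower and 35.3% higher. PDIA4 and PDIA6, oxidoreductases of the protein disulfide isomerase family, fell by 0.75 and 0.64 on the log2 scale, with adjusted p values of 3.58e-06 and 7.77e-06. PDIA3, the isomerase that works with both lectin chaperones, had a log2 fold change of -0.24 (adjusted p = 0.00411), which was -0.04 with library totals (adjusted p = 0.455). P4HB, the isomerase for which the family is named, went from 619 ± 11.8 to 576 ± 19.5 CPM (SD, n = 3 each) without passing (log2 fold change -0.10, adjusted p = 0.130; 0.09 with library totals). ERO1B, which reoxidizes these isomerases, rose by 0.58 (standard error 0.12, adjusted p = 0.00191) at a low level, from 11.7 ± 1.53 to 17.5 ± 1.21 CPM (SD, n = 3 each). Its paralog ERO1A, not in the list, was far more abundant and went from 299 ± 21.3 to 168 ± 11.1 CPM (SD, n = 3 each). The log2 fold change of ERO1A was -0.83 (adjusted p = 9.75e-06). ERP44 (chr9:99979179-100099040, minus strand), which retrieves unassembled proteins and ERO1 enzymes to the ER, measured 69.5, 67.4 and 64.5 CPM with DMSO and 17.9, 15.3 and 17.8 CPM with NCD. ERP44 fell by 1.98 on the log2 scale (standard error 0.09, adjusted p = 1.11e-07), the second largest fall among the 39, and its groups were far apart.

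The J-domain co-chaperones, which bring HSPA5 to its clients, split 3 ways. DNAJB9 (chr7:108569568-108574850, plus strand), known as ERdj4 and as a repressor of IRE1, measured 19.7, 20.2 and 18.9 CPM with DMSO and 44.7, 45.3 and 42.7 CPM with NCD. It rose by 1.18 on the log2 scale (standard error 0.07, adjusted p = 9.83e-07), to 2.26 times its DMSO mean. DNAJC3 (chr13:95677139-95794989, plus strand), known as an inhibitor of PERK and a luminal co-chaperone, measured 92.6, 110 and 96.7 CPM with DMSO and 34.6, 34.4 and 45.1 CPM with NCD. All NCD libraries lay below all DMSO libraries, and DNAJC3 fell by 1.39 (standard error 0.12, adjusted p = 6.93e-06). DNAJC10, a reductase known as ERdj5, fell by 0.98 (adjusted p = 6.95e-06) and was past a fall of 1 without DMSO replicate 1, DMSO replicate 3 or NCD replicate 3, with fits without 1 library from -1.08 to -0.95. DNAJB11, known as ERdj3, did not pass (log2 fold change 0.04, adjusted p = 0.507, groups overlapping).

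Of the small luminal proteins, which cells produce under ER stress, 2 of 3 passed as higher, where 35.3% of all tested genes did. CRELD2 rose from 13.0 ± 0.581 to 23.7 ± 2.33 CPM (SD, n = 3 each), by 0.87 on the log2 scale (standard error 0.10, adjusted p = 5.75e-05). MANF, a secreted protein that also binds HSPA5, had a log2 fold change of 0.23 (adjusted p = 0.0261) with groups that overlapped, and its call was lost without DMSO replicate 2 (adjusted p = 0.0884), DMSO replicate 3 (0.140), NCD replicate 1 (0.125) or NCD replicate 2 (0.109). SDF2L1, a partner of DNAJB11, did not pass (log2 fold change -0.25, standard error 0.19, adjusted p = 0.258), and its NCD libraries spread from 5.32 to 9.22 CPM. Both subunits of the translocation channel passed as lower, where 34.1% of all tested genes did. SEC61A1, the pore, fell by 0.54 (standard error 0.05, adjusted p = 1.80e-05). SEC61B, a small accessory subunit, had a log2 fold change of -0.32 (adjusted p = 0.0176), which was -0.12 with library totals (adjusted p = 0.249).

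ER-associated degradation moves misfolded proteins to the cytosol for the proteasome. Of its 10 tested genes 5 were higher, 3 were lower and 2 did not pass. Among all tested genes 35.3% were higher and 34.1% lower. HERPUD1 (chr16:56932048-56944863, plus strand), a membrane protein that organizes the degradation complex, measured 81.1, 79.7 and 87.8 CPM with DMSO and 232, 228 and 203 CPM with NCD. It was the largest rise among the 39 genes, at 1.41 on the log2 scale (standard error 0.07, adjusted p = 3.19e-07), and the libraries of both groups lay far apart. SYVN1, the ubiquitin ligase HRD1, rose from 33.1 ± 2.60 to 66.2 ± 3.31 CPM (SD, n = 3 each), a log2 fold change of 1.00 (adjusted p = 5.09e-06) that lay just under the fold threshold and passed it without DMSO replicate 2 or without NCD replicate 3. Its partner SEL1L, which holds the ligase in its complex, moved the other way, at -0.69 on the log2 scale (standard error 0.12, adjusted p = 0.000654).

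The other rises in this role were small. SELENOS, which recruits the ATPase VCP, rose by 0.35 (adjusted p = 0.00461), and DERL1, a channel protein, by 0.26 (adjusted p = 0.00310). OS9, a lectin that recognizes trimmed glycans, had a log2 fold change of 0.24 (adjusted p = 0.00511), and its call was lost without DMSO replicate 3 (adjusted p = 0.0543). The mannose-trimming proteins EDEM1, EDEM2 and EDEM3 did not share a direction. EDEM3 fell by 0.55 (standard error 0.13, adjusted p = 0.00382), EDEM1 had a log2 fold change of -0.31 (adjusted p = 0.00446, or 0.248 with library totals), and EDEM2 did not pass at 0.20 (adjusted p = 0.0682). DERL2, a relative of DERL1, was at 0.02 (adjusted p = 0.825), and WFS1, the calcium-handling membrane protein wolframin, at 0.06 (adjusted p = 0.647), both with overlapping groups.

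**Figure D3:**
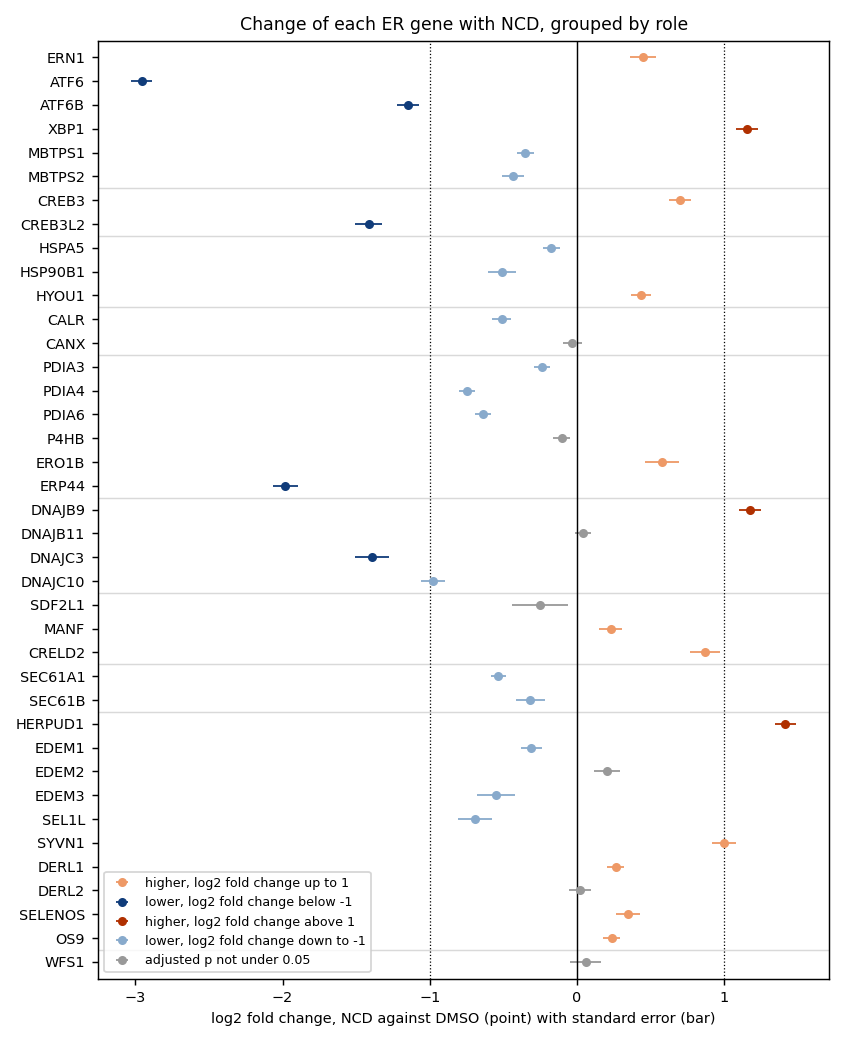
Log2 fold change of NCD against DMSO (point) with its standard error (bar) for the 39 tested ER genes, grouped by role, with dotted lines at -1 and 1 and colours for direction and threshold. ATF6 lies farthest to the left at -2.96 and HERPUD1 farthest to the right at 1.41, and degradation genes stand on both sides of 0.

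The genes with an ERSE did not share a direction. Of these 8 genes with an ERSE, XBP1, CRELD2 and ERO1B rose, with log2 fold changes of 1.15, 0.87 and 0.58, HSPA5, HSP90B1, CALR and PDIA6 passed as lower, at -0.17, -0.51, -0.51 and -0.64, and CANX did not pass. Of the 3 genes with an ERSE-II, HERPUD1 and HYOU1 rose by 1.41 and 0.44 and SDF2L1 did not pass. The 3 genes with a UPRE core were DNAJC10 at -0.98, SEC61A1 at -0.54 and HYOU1 at 0.44. For comparison, 35.3% of all tested genes were higher and 34.1% lower. Counts over so few genes do not set any of these elements apart from those shares. None of the 75 other genes of the pathway with a window held an ERSE or ERSE-II match, and 9 of them held the UPRE core.

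The length of the gene moved with these changes. The median span of all tested genes was 28.99 kb. Of the 17 ER genes that were longer, 3 were higher and 11 lower (64.7% lower, beside 54.5% of all longer genes), and of the 22 that were shorter, 10 were higher and 8 lower (36.4% lower, beside 14.8% of all shorter genes). The longer genes that rose were ERN1, ERO1B and DERL1. Of the 5 genes past the fold threshold as lower, ATF6 (198 kb), CREB3L2 (127 kb), ERP44 (120 kb) and DNAJC3 (118 kb) had the longest spans of the 40, and ATF6B (13.0 kb) was short. XBP1 (6.0 kb), DNAJB9 (5.3 kb) and HERPUD1 (12.8 kb), the genes past it as higher, were all short. Spearman's rho between span and log2 fold change was -0.54 across the 39 genes and -0.50 across the 14692 tested genes with a span. These correlations are across genes that share the same libraries, and genes are not independent replicates. The part of gene length in each gene's change was not tested.

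**Figure D4:**
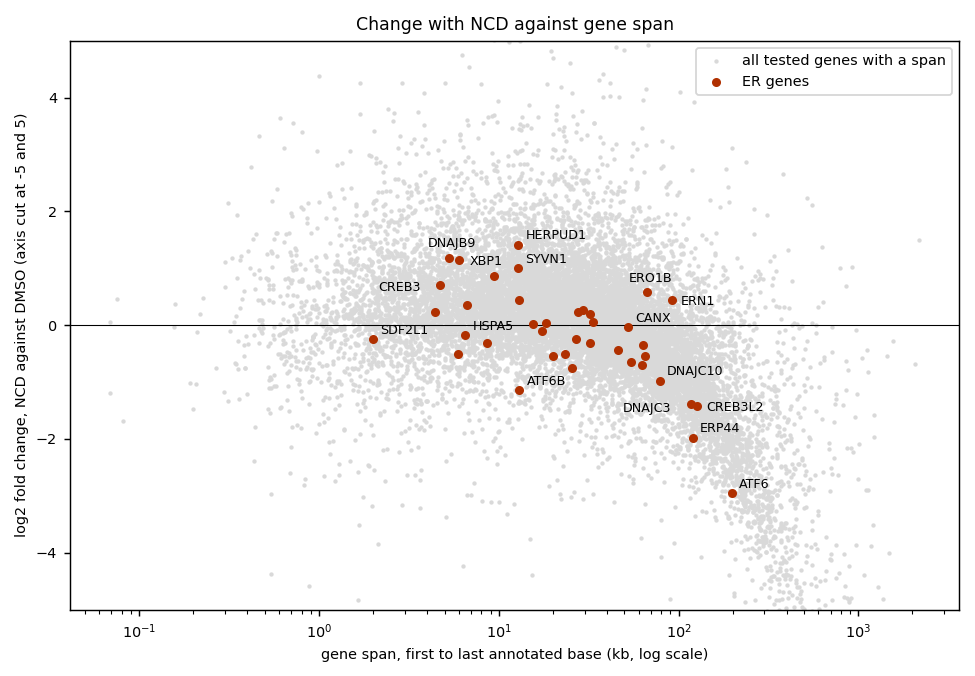
Log2 fold change of NCD against DMSO (vertical axis, cut so that the most extreme genes fall outside) against gene span in kb (horizontal axis, log scale) for all tested genes with a span (grey) and the ER genes (red). ATF6, CREB3L2, ERP44 and DNAJC3 lie at the long end with falls of more than 1, and ATF6B is the short gene with such a fall.

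Some of these counts may hold reads of other genes, since the strandedness of the counting is not stated. FAU overlaps SYVN1 on the same strand with 640% of its counts and a log2 fold change of 0.16. Genes on the opposite strand are TLN1 for CREB3 (387%, log2 fold change -0.19), PNPLA8 for DNAJB9 (145%, 0.35), MIS12 for DERL2 (84.7%, 1.06), ALG12 for CRELD2 (73.2%, 0.30), GPR137B for ERO1B (56.9%, 0.12), RUVBL1 for SEC61A1 (37.2%, -0.89) and TBC1D31 for DERL1 (30.4%, -0.57). TNXB overlaps ATF6B on the same strand with 14.1% of its counts and a log2 fold change of 1.76, against the direction of ATF6B. TBCCD1 overlaps DNAJB11 on the opposite strand (14.6%, 0.57), and YY2 lies within MBTPS2 on its strand (4.08%, -1.35). The overlapping genes of DERL2, SEC61A1, DNAJB11 and MBTPS2 passed the test with larger changes in the same direction, though YY2 held few counts beside MBTPS2. SYVN1, CREB3 and DNAJB9 have overlapping genes with more counts than their own, so their values are uncertain as well. How far stray reads altered any value was not tested. XBP1, HSPA5, MANF, SDF2L1, SEC61B, SEL1L, SELENOS, ERN1, EDEM3, PDIA4 and WFS1 had no annotated overlapping gene. Pseudogene copies of PDIA3 had at most 30 counts and those of HSP90B1 at most 10.

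The rest of the pathway was described through 92 further genes, of which 89 were tested. Of these 27 were higher and 36 lower in edgeR's test, or 30.3% and 40.4%. Among all tested genes 35.3% were higher and 34.1% lower. With library totals, which moved the median of all tested genes to 0.23, 40 of the 89 were higher and 28 lower, and those shares do not apply. The median log2 fold change of the 89 was -0.09. Most genes of the PERK arm rose. EIF2AK3, which encodes PERK itself, went from 24.4 ± 1.20 to 16.8 ± 1.45 CPM (SD, n = 3 each), a change of -0.53 on the log2 scale (standard error 0.09, adjusted p = 0.000785), while all 7 other genes of the arm were higher, 6 of them past the fold threshold. ATF4, the factor that PERK's kinase activity favours, rose by 0.61 (standard error 0.07, adjusted p = 7.44e-05), and DDIT3, which encodes CHOP, rose from 28.4 ± 2.79 to 130 ± 9.73 CPM (SD, n = 3 each), a log2 fold change of 2.20 (adjusted p = 9.66e-08). CHAC1, ATF3 and TRIB3, known targets of ATF4 and CHOP, rose by 3.74, 3.21 and 1.93. These genes also answer to kinases other than PERK, whose activity was not measured.

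In the other roles the changes past the fold threshold were mostly falls, but falls were no more frequent than among all genes. Past it, 8 of the 89 rose (8.99%), 6 of them in the PERK arm, and 13 fell (14.6%). Among all tested genes 13.5% rose and 17.5% fell past it. The counts by role below are at the test alone, where 35.3% of all tested genes were higher and 34.1% lower. Of 13 genes of translocation and signal peptidase, 2 were higher and 7 lower, and SSR2 and SSR3, subunits of the translocon-associated complex, and SEC63, a co-chaperone at the channel, had log2 fold changes of -1.81, -1.43 and -1.05. Of 12 genes of N-glycosylation and glycan trimming, 2 were higher and 8 lower, with falls past the threshold in STT3B, a catalytic subunit of oligosaccharyltransferase (-2.06), and in UGGT1 and UGGT2, which re-tag misfolded glycoproteins for calnexin and calreticulin (-2.01 and -2.05). Of 12 other disulfide enzymes, 2 were higher and 6 lower, with PDIA5 at -1.76 and TXNDC5 at -1.01. Of 16 other chaperones and co-chaperones, 6 were higher and 4 lower, and SIL1, which like HYOU1 exchanges the nucleotide of HSPA5, was at -3.27, DNAJC1 at -2.36 and the calcium-binding CALU at -1.47. Of 23 other degradation genes, 6 were higher and 9 lower, with RHBDD1 at -1.60, ERLIN1 at -1.16 and FAM8A1, a partner of SYVN1, at 1.05. Of 5 further sensors and membrane factors, 2 were higher and 1 lower, and CREB3L4 was at 1.10. SIL1 (347 kb), UGGT2 (252 kb), DNAJC1 (247 kb), RHBDD1 (164 kb), PDIA5 (158 kb), STT3B (105 kb) and UGGT1 (104.5 kb) are long genes, while SSR2 (11.9 kb) and SSR3 (15.0 kb) are short. Between them lie SEC63 (90.4 kb), ERLIN1 (38.2 kb), CALU (32.5 kb) and TXNDC5 (29.3 kb), the last 3 nearer to the median of 28.99 kb.

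**Figure D5:**
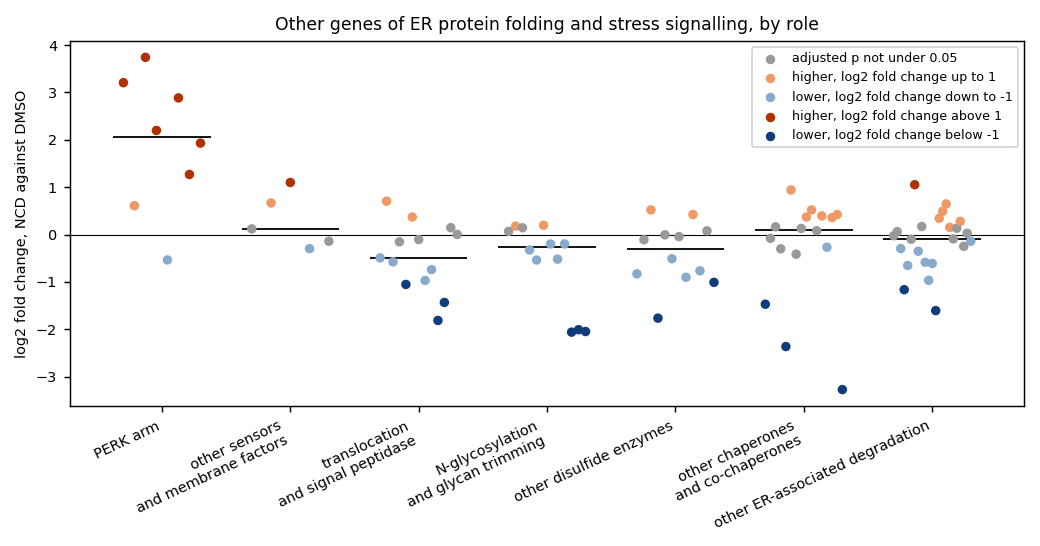
Log2 fold change of NCD against DMSO (vertical axis) of 89 further genes of ER protein folding and stress signalling, 1 point per gene, by role, with a line at each role's median. The PERK arm has its median at 2.06 and the medians of the other roles lie between -0.49 and 0.12.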

How the data were processed

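The authors aligned reads with HISAT2, estimated counts per Ensembl gene with RSEM and deposited these expected counts per library, without normalization. The build is GRCh38 (hg38) per the submitters' processing notes, while versions, annotation release and strandedness are not given in the sources used here. In each library 25 lines without a gene or count were skipped. The expected counts, rounded to whole numbers, were tested in R 4.3.3 with edgeR 4.0.16 (filterByExpr, TMM, glmQLFit, glmQLFTest, Benjamini-Hochberg over 15295 genes), after the script was tested on simulated data. The fold threshold of 1 (log2) follows the study's methods. Standard errors are the absolute log2 fold change over the square root of F, and CPM uses TMM-scaled library sizes. An exact two-sided permutation test of 3 against 3 libraries cannot go below p = 0.1. Gene spans and exon lengths came from GENCODE release 29 on GRCh38, which may not be the authors' annotation, and promoters from RefSeq GRCh38.p14.

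The genes and the lists of other pathway genes were chosen with earlier results of these data known. Every gene of the list is named, with values per library for the sensors, ATF6 proteases, HSPA5, HSP90B1, CALR, CANX and genes past test and fold. Of the other genes, up to 4 per role with the smallest p past test and fold and a mean of at least 5 CPM are named, and EIF2AK3, ATF4 and DDIT3 in any case. ERO1A is named as well, beside its paralog ERO1B, and NUPR1 for its low counts. Some marker genes are not reported here. Alternatives were DESeq2 1.42.0, limma-voom (limma 3.58.1), library totals, no filter, at least 10 counts in every library, a block for the replicate number, and leaving out each library in turn. The fit without DMSO replicate 2 and NCD replicate 3 was added after seeing the data. A gene with few counts, such as DERL3, is not measurable at this depth.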

Additional observations from a re-analysis of the deposited data

How the results depend on the processing

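Of the log2 fold changes of single ER genes under the alternatives, 483 kept their direction and side of the threshold. With the direction kept, 11 lost their call and 4 gained one, and 9 changed direction. With library totals, genes past test and fold as higher went from 3 to 5, with CRELD2 and SYVN1 added. CANX (0.16), HSPA5 (0.02) and P4HB (0.092) turned positive, EDEM1, PDIA3 and SEC61B lost their calls, and CANX, DERL2, DNAJB11, EDEM2 and WFS1 gained one as higher. This scaling moves every gene upward, with the median of all tested genes at 0.23. DERL2, near 0, was at -0.00051 with DESeq2, at -0.010 without both DMSO replicate 2 and NCD replicate 3, and from -0.052 to 0.044 with 1 library left out. WFS1 ranged from -0.042 to 0.13 with 1 library left out. The cause of these reversals near 0 was not tested. The counts past the test with no fold threshold stayed within 1.5 times the main counts in every alternative.

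The deviations of same-numbered libraries from their group means correlated at 0.216, -0.185 and 0.023. Libraries with different numbers were not compared, so these values cannot show whether the replicate numbers pair the libraries. With a replicate block 13 genes were higher and 18 lower, HSPA5 being the call lost, and among the other pathway genes 26 were higher and 32 lower. Genes with a few counts, such as DERL3, were limited by depth.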

Other observations

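The order of the libraries within each group was counted over the 39 ER genes. DMSO replicate 2 was the highest of its group in 20 of the 39 genes (51.3%) and in 45.1% of all tested genes. NCD replicate 3 was the highest of its group in 14 and the lowest in 20 of the 39, against 41.6% and 39.8% of all tested genes. DMSO replicate 2 and NCD replicate 3 were both the highest of their groups in 13 of the 39 (33.3%, beside 27.0% of all tested genes), which were ERN1, MBTPS1, MBTPS2, CREB3L2, HSP90B1, CANX, ERO1B, DNAJC3, DNAJC10, EDEM1, EDEM3, SEL1L and OS9. XBP1 and HERPUD1 were lowest in NCD replicate 3 among the NCD libraries, at 209 and 203 CPM, and lay above every DMSO library.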
